A study of Homo sapiens with 4 samples.

Results

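Shared GATA3 regions whose centres lay inside an exon of a protein-coding gene were examined in H1 human embryonic stem cells (hESC). A shared region was a ChIP-seq peak position of replicate 1 within 100 bp of a peak position of replicate 2, centred on their mean, and a centre was kept when it lay more than 1 kb from the 5′ end of every protein-coding gene in GENCODE release 44 on hg38. Of 9145 shared regions, 244 (2.67%) met this rule. They fell in 239 genes and were separated into 54 in coding sequence, 37 in 5′ untranslated regions (UTRs), 85 in 3′ UTRs and 68 in other exons. Other exons are exons of transcripts of protein-coding genes for which the annotation gives no productive protein, and 37 of the 68 were retained-intron transcripts. Introns, the most similar class and also taken only more than 1 kb from gene starts, held 3778 shared regions.

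H1 is an established pluripotent line, and the cells had received BMP4, a growth factor of the TGF-beta family, at 50 ng/ml for 6 h. Both analysed samples were GATA3 ChIP replicates from BMP4-treated cells, and the 2 input samples entered only through the authors' peak calling. No untreated GATA3 ChIP was compared, so none of the values below measures an effect of BMP4. The replicates listed 18456 and 12782 positions on the chromosomes. Each position is a single base with no width or height, and the read depth of each library is unknown from these files.

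GATA3 is a transcription factor with a pair of zinc fingers that takes part in trophoblast, T cell and epithelial differentiation. Its carboxy-terminal finger recognises the GATA core, and the amino-terminal finger of this family has been described to bind the related core GATC. Most binding sites of such factors lie in introns and between genes. An exon can nevertheless hold a site, and there the same bases also serve as codons, as untranslated message, or as the first exon of an alternative transcript.

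The sequences at these regions show the motif in each setting. The GATA motif was AGATAA or AGATAG or TGATAA or TGATAG on either strand, and capitals mark it below, with its reverse complement written where the motif is on the opposite strand. Each sequence is 30 bases of hg38 centred on the motif nearest to the region centre, read 5′ to 3′ on the strand of the gene. The first set holds the 8 coding regions with a motif whose replicate positions were closest together:
RAD51B, chr14:68291873-68291902 (+): tctgttcacaggTTATCTtgacgaatcaga
KIF12, chr9:114097614-114097643 (-): ccttcgcgcctcTTATCTggagatctacaa
ARHGEF33, chr2:38943964-38943993 (+): ctctgatcttgaAGATAAaagccacattcc
MIF4GD, chr17:75267757-75267786 (-): gctatgtcacctTTATCTgcaacatctttg
MDN1, chr6:89689899-89689928 (-): gtttctgtcttgCTATCAgactggggcatc
FMC1-LUC7L2, chr7:139422244-139422273 (+): cagagatcggaaAGATAAgaagcggtccta
PTPN3, chr9:109422765-109422794 (-): atgcggagatccTTATCAgtggagcactta
FAR2, chr12:29316958-29316987 (+): gggcccctgccaTTATCTatgactgctatc

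The second set holds 3′ UTR regions, the closest replicate pairs first and then genes of the BMP and TGF-beta pathway and of development:
PDGFC, chr4:156763000-156763029 (-): agaacgtatgcgTTATCTccatccttaatc
PRICKLE1, chr12:42458709-42458738 (-): gcaaggtgatgaTTATCTcatgggaaatga
ARIH1, chr15:72597371-72597400 (+): agccaccagcttTTATCAatgtgggagatc
SMAD2, chr18:47816097-47816126 (-): gggaagctgatcTTATCTccgggctctaga
FST, chr5:53486656-53486685 (+): acaaggtacagaAGATAAgcatctttgagg
INHBA, chr7:41689142-41689171 (-): tctgtgtgacacTTATCTctgtgtatatca
FOXC1, chr6:1613767-1613796 (+): tacagtttcctgCTATCTgccgctcctatc
ZIC1, chr3:147416223-147416252 (+): tctctctagaaaAGATAAcaccacaattaa

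The third set holds 5′ UTR regions, each in the first exon of a transcript that starts inside the gene:
NSUN6, chr10:18651571-18651600 (-): gtgtttggaaatTGATAGaaaagataaagg
SPARC, chr5:151685211-151685240 (-): gttaactctcagCTATCAgctgccacatcg
SMAD7, chr18:48948474-48948503 (-): tatcataagtttCTATCTctcttctcatgg
CACNB2, chr10:18400574-18400603 (+): cgagatctccaaAGATAAggcttgaacttt
PAX6, chr11:31803793-31803822 (-): tgtgagatacaaAGATAAaggagggatggg
CX3CL1, chr16:57377714-57377743 (+): ctctgaagggctAGATAAgatcagcttgct

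The replicate positions at these sequences were compared. In RAD51B, which encodes a homologous recombination factor, both replicates gave position 68291905 in exon 8 of 11, 17.5 bp from the motif centre. In ARHGEF33, a guanine nucleotide exchange factor gene, the positions were 38943978 and 38943976 in exon 10 of 18. The pair in MIF4GD was 75267774 and 75267771, and the pair in KIF12, a kinesin gene, was 114097656 and 114097655. Both replicates gave 156763021 in the 3′ UTR of PDGFC, a platelet-derived growth factor, and 42458712 in that of PRICKLE1, a planar cell polarity gene. They gave 18651585 in the 5′ UTR of NSUN6, an RNA methyltransferase gene, and there the position fell within the motif itself. In COL14A1, which encodes a fibril-associated collagen, both replicates gave 120125139, 5 bp from an annotated transcript start.

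The first question was how densely the regions occupied each part of a gene, because the parts differ in length. Coding sequence had the lowest density, 1.67 regions per Mb (95% CI 1.25 to 2.18; 54 regions in 32.4 Mb). The 3′ UTRs had 2.20 per Mb (95% CI 1.76 to 2.72), other exons 2.80 (95% CI 2.18 to 3.55) and introns 3.19 (95% CI 3.09 to 3.30). The 5′ UTRs had 8.51 regions per Mb (95% CI 5.99 to 11.7; 37 regions in 4.35 Mb), and sequence within 1 kb of gene starts, outside the rule, had 11.7. Against introns, coding sequence was lower by a ratio of 0.523 (two-sided exact binomial test, p 4.3e-07 adjusted over the 4 parts), and 3′ UTRs by a ratio of 0.690 (adjusted p 6.1e-04). The 5′ UTRs were 2.67 times higher than introns (adjusted p 4.3e-07), and other exons could not be separated from them (ratio 0.878, adjusted p 0.328). The comparison of coding sequence with 3′ UTR did not pass (ratio 0.757, exact p 0.125, adjusted p 0.175 over 7 tests). These p-values count regions, not cultures, and the comparisons with introns were chosen after values of these data had been seen.

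**Figure D1:**
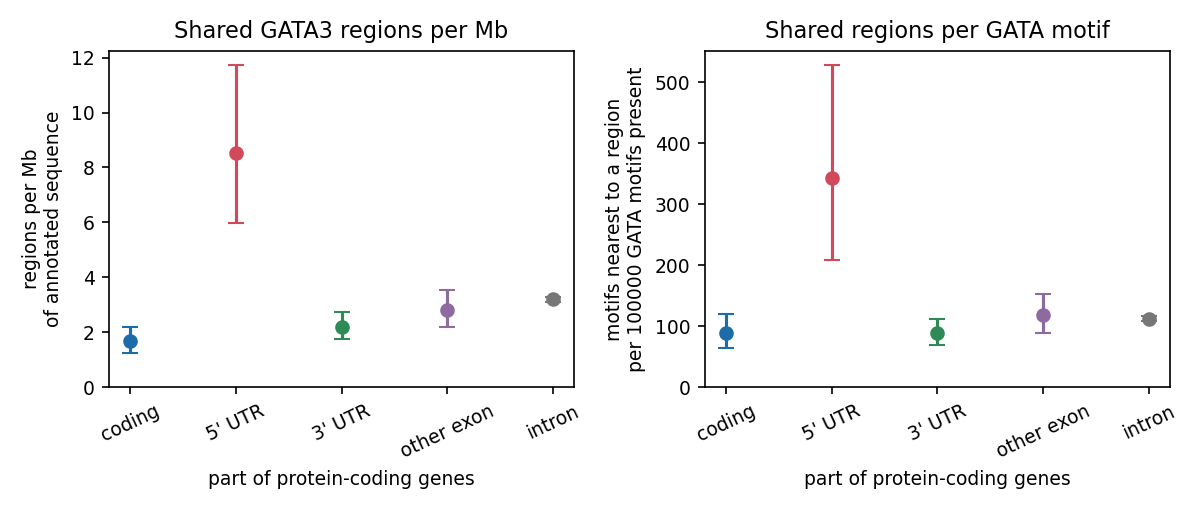
Left, shared regions per Mb of annotated sequence (points) with 95% exact Poisson intervals (bars) in each part of protein-coding genes more than 1 kb from a gene start. Right, GATA motifs that were the nearest motif of a shared region, per 100000 GATA motifs present in that part. The 5′ UTR stands highest in both panels (8.51 per Mb and 342 per 100000), and the coding value is below the intron value on the left (1.67 against 3.19) with overlapping intervals on the right. Both panels pool sequence near to and away from transcript starts.

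The parts also differ in how many GATA motifs they contain. Coding sequence held 1.46 GATA motifs per kb, 5′ UTRs 1.35, other exons 1.95, 3′ UTRs 2.11 and introns 2.39. The motifs nearest to a shared region were therefore also counted per motif present, in the part where the motif itself lay. Regions without a motif dropped out of this count. In it, coding and 3′ UTR values were close to each other. For every 100000 motifs present, 89.1 coding motifs (95% CI 64.2 to 120), 88.4 motifs of 3′ UTRs (95% CI 69.2 to 111) and 112 intronic motifs (95% CI 108 to 116) were the nearest motif of a shared region. Neither the coding nor the 3′ UTR value passed against introns (ratios 0.796 and 0.790, exact binomial test, adjusted p 0.218 and 0.0969). The 5′ UTR value was 342 (95% CI 209 to 528, from 20 motifs), which was 3.06 times the intronic one (adjusted p 7.3e-05). All 20 motifs lay within 1 kb of an annotated transcript start. There the 5′ UTR value was 476 (95% CI 291 to 735) and the intronic one 182 (95% CI 163 to 204). Farther away, 0 of the 1646 motifs present in 5′ UTRs were nearest to a region. In the pooled sequence, the ratio of coding to 3′ UTR moved from 0.757 per Mb to 1.01 per motif. These values per motif pool sequence near to and away from transcript starts. More than 1 kb from any annotated transcript start, the coding value was 74.0 (95% CI 48.3 to 108). The 3′ UTR value there was 82.3 (95% CI 63.1 to 105) and the intronic one 107 (95% CI 103 to 111). Within 1 kb, coding had 133 (95% CI 76.2 to 217) and 3′ UTRs 164 (95% CI 78.6 to 301). Coding was below 3′ UTR on both sides of 1 kb, with overlapping intervals, and these split values were not tested.

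The rule removed regions near the 5′ end of a gene but not those near the start of another transcript inside it. Of the 244 exonic regions, 104 (42.6%; 95% CI 36.6 to 48.9) lay within 1 kb of some annotated transcript start, compared with 410 of 3778 intronic regions (10.9%) and 13.5% of all shared regions. The odds ratio was 6.10 (two-sided Fisher exact test, adjusted p 7.5e-33). With exons of canonical transcripts only it was 2.96 (38 of 130 against 476 of 3892). The sequence itself is unevenly placed, since 28.8% of the exonic bases and 7.36% of the intronic bases outside gene starts are that close to a transcript start. The test takes no account of this, so it cannot separate the placement of regions from that of the sequence. In both classes the share of regions was above the share of bases. In 94 of the 104 the start belonged to a transcript of a protein-coding gene, and in 10 only to other gene types. Within 100 bp of a transcript start there were 52 regions.

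The 5′ UTR group was mostly of this kind, and 29 of its 37 regions were in the first exon of a transcript. Of the 37, 33 (89.2%) lay within 1 kb of a transcript start and 24 within 100 bp, and the median distance was 67 bp. The annotated 5′ UTR bases are themselves 77.9% within 1 kb of one. The medians were 591.5 bp for other exons, 1743.5 bp for coding sequence and 4260 bp for 3′ UTRs. Of 12 regions in 3′ UTRs near a start, 8 were near starts of other gene types only.

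**Figure D2:**
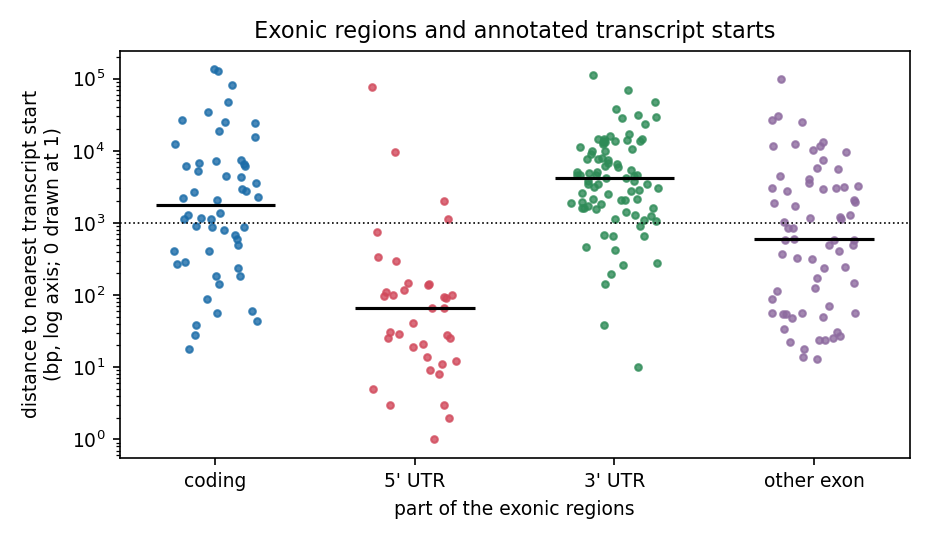
Distance from each exonic region to the nearest annotated transcript start (log axis, bp; values of 0 drawn at 1), by part. Points are regions, the bar is the median and the dotted line is 1 kb. The 5′ UTR points centre on 67 bp, whereas the 3′ UTR points centre on 4260 bp.

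Some 5′ UTR members lay beside a start far inside their gene. In SMAD7, the inhibitory SMAD of the BMP and TGF-beta pathways, the replicate positions 48948477 and 48948474 lay 29 bp from an alternative transcript start and 2.49 kb from the gene start. In PAX6, a transcription factor of eye and forebrain, they were 31803831 and 31803798, 142 bp from a transcript start and 14.1 kb inside the gene. SPARC, a secreted matrix protein, had 151685222 and 151685232 at 3 bp from a start. CACNB2, a calcium channel subunit, had 18400576 and 18400580, also 3 bp from one but 260.2 kb inside the gene. The region of DLG2, a synaptic scaffold gene, lay 1903 kb from the gene start and 101 bp from the nearest transcript start. In the canonical transcript, the one that the annotation takes as representative, 9 of the 37 5′ UTR regions were 5′ UTR, 22 were intron and 6 lay outside. Among all 244 regions the canonical transcript gave an exon for 130, an intron for 93 and no overlap for 21.

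The low density of coding sequence was also seen away from transcript starts. In sequence more than 1 kb from any annotated transcript start, coding sequence held 32 regions at 1.41 per Mb, 0.460 of the intronic density (exact binomial test, adjusted p 3.8e-06). The 3′ UTRs held 73 regions at 0.676 of it (adjusted p 0.00113). Other exons held 31 regions at 0.832 of it (adjusted p 0.485). Only 4 regions of 5′ UTR remained, with a ratio of 1.35 (exact adjusted p 0.549). Within 1 kb of a start, coding sequence was again below introns (22 regions, ratio 0.482, adjusted p 5.8e-04) and 5′ UTR above them (33 regions, ratio 2.07, adjusted p 5.8e-04). Other exons passed there too, with 37 regions at a ratio of 0.648 (adjusted p 0.0123), and 3′ UTRs did not (12 regions, ratio 0.743, exact adjusted p 0.372).

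The next comparison concerned the motif. A GATA motif lay within 100 bp of the centre in 189 of 244 exonic regions (77.5%; 95% CI 71.8 to 82.3) and in 3168 of 3778 intronic regions (83.9%), against 82.0% of all shared regions. The difference passed (odds ratio 0.662, two-sided Fisher exact test, adjusted p 0.0292), and of the 4 parts taken singly only the 5′ UTRs passed. There 20 of 37 regions (54.1%; 95% CI 38.4 to 69.0) held a motif, an odds ratio of 0.227 against introns (Fisher exact test, p 9.3e-05 adjusted over the 4 parts). The share was also low within 1 kb of gene starts, outside the rule, at 280 of 432 (64.8%, 95% CI 60.2 to 69.2). Of regions within 1 kb of any transcript start, 19 of 33 in 5′ UTRs (57.6%, 95% CI 40.8 to 72.8) held one. In introns 315 of 410 such regions did (76.8%, 95% CI 72.5 to 80.7). Coding sequence had 41 of 54 (75.9%, adjusted p 0.270), 3′ UTRs 73 of 85 (85.9%, adjusted p 0.765) and other exons 55 of 68 (80.9%, adjusted p 0.675). These tests by part were chosen after values had been seen. Without regions near any transcript start the shares were 82.1% and 84.7%, and the difference no longer passed (odds ratio 0.830, exact p 0.403). Coding sequence and 3′ UTR did not differ past the threshold (odds ratio 0.518, exact p 0.175, adjusted p 0.204).

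In the flanks the motif was less frequent. Windows of the same length centred 500 bp to either side of the exonic regions held a GATA motif in 31.8% (95% CI 27.8 to 36.0), and those around intronic regions in 36.0%. Within 20 bp of the centre, exonic regions had 12.2 motifs per kb, falling to 2.77 per kb at 80 to 100 bp. The 3′ UTRs reached 16.2 per kb at the centre and coding sequence 13.4, near the 13.7 of introns, and 5′ UTRs and other exons had 8.11 and 8.46.

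**Figure D3:**
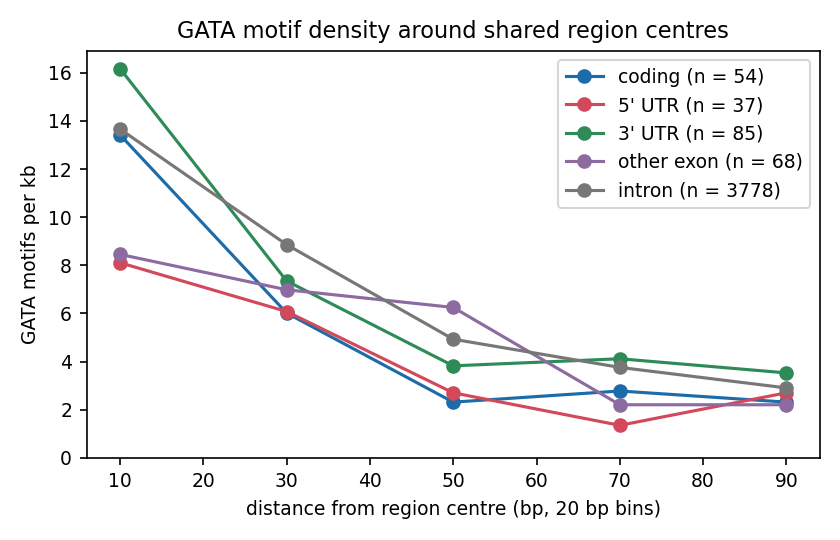
GATA motifs per kb in 20 bp bins of distance from the region centre (both sides joined), for the 4 exonic parts and introns. All 5 lines are highest in the bin nearest to the centre, from 8.11 per kb in 5′ UTRs to 16.2 per kb in 3′ UTRs, and lie between 2.21 and 3.53 per kb in the last bin.

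The position of each replicate was set against the motif. The motif was the one nearest to the mean of both positions, within 100 bp of it, so short distances are partly fixed by this choice and are given as a description. Over the 189 exonic regions with a motif, the median distance from the motif centre was 22.5 bp in replicate 1 and 22.5 bp in replicate 2. In 140 (74.1%) both positions were within 50 bp, and in coding sequence this held for 34 of 41 (82.9%). The nearest motif was AGATAA in 104 regions (55.0%), TGATAA in 38, AGATAG in 32 and TGATAG in 15. It lay on the sense strand of the gene in 96 (50.8%), and it lay wholly within the same exon in 179 (94.7%).

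**Figure D4:**
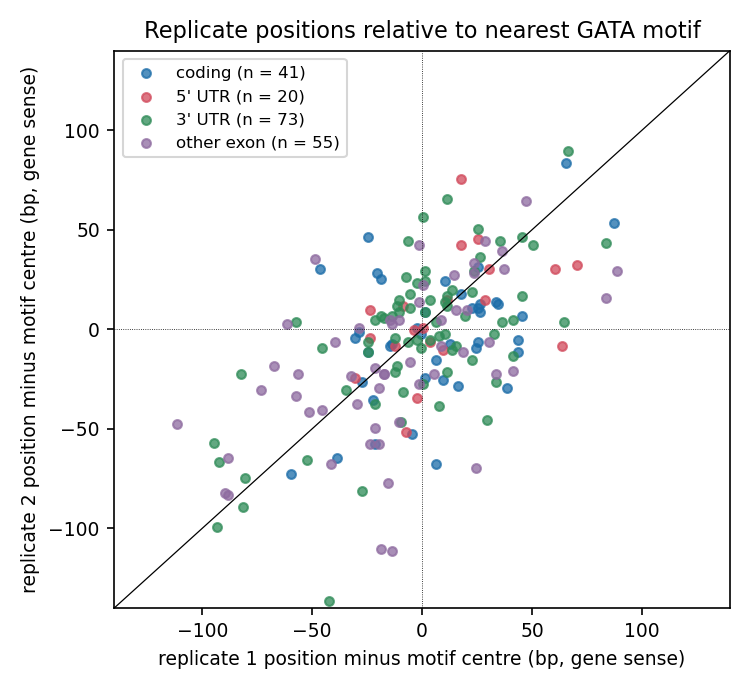
Replicate 1 position (x) and replicate 2 position (y) relative to the centre of the nearest GATA motif, in bp along the gene, for the 189 exonic regions with a motif; the line is equality. The median distance is 22.5 bp in each replicate, and the range is bounded by the choice of motif within 100 bp of the mean position.

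In coding exons the motif had to fit the reading frame. The 52 GATA motifs of coding regions that lay in coding sequence were placed by the position of their first base in the codon. None of them was on the sense strand with its first base at the start of a codon, a placement in which the second codon would be the stop TAA or TAG. That placement was also held by 0 of the GATA motifs in canonical coding sequence genome-wide. The sense motifs were 13 with the first base at the second codon position (25%, against 19.1% of all canonical coding motifs) and 16 with it at the third (30.8%, against 33.6%). Antisense motifs numbered 6, 10 and 7 at the 3 placements (11.5%, 19.2% and 13.5%, against 11.1%, 18.1% and 18.1%). Of the 13 sense motifs at the second position, 6 were in NPIPB5 and NPIPB12, near-identical copies. Without coding regions that have a second place in the genome (at least 90% identity over 150 bp), 7 of 45 motifs were at that placement (15.6%), below the share of all canonical coding motifs, and 15 were at the third (33.3%).

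A second short word stood beside many of the motifs. The word GATC, which is its own reverse complement, occurred in the 12 bases on either side of the nearest motif in 53 of the 189 exonic regions (28.0%; 95% CI 22.1 to 34.8). It occurred beside 4.18% of all 181878 GATA motifs in exons outside gene starts. Intronic motifs nearest to a shared region had it in 29.1% (95% CI 27.6 to 30.7), against 3.94% of all intronic motifs. By part the share was 15 of 41 coding regions (36.6%), 9 of 20 of 5′ UTR (45.0%), 17 of 73 of 3′ UTR (23.3%) and 12 of 55 of other exons (21.8%), with overlapping intervals. This word was chosen after the sequences had been seen, and the shares are given as a description without a test.

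The other palindromes made of each base once were counted in the same way. In exons, GTAC stood beside 3.16% of the motifs nearest to a shared region and 3.78% of all motifs. For CATG the values were 8.42% and 7.60%, for CTAG 5.26% and 4.40%, for AGCT 7.89% and 7.68%, and for TGCA 4.74% and 8.06%. ACGT stood beside 1.58% and 1.52%, and TCGA beside 1.05% and 1.14%. The interval around each of these 7 shares of nearest motifs included the share among all exonic motifs. In introns, with more motifs, only the interval of AGCT included the share among all intronic motifs. TGCA stood beside 10.4% (95% CI 9.37 to 11.5) of the nearest intronic motifs and 7.68% of all, and CATG beside 4.48% (95% CI 3.81 to 5.26) and 7.52%. For CTAG the values were 6.06% and 5.19%, and for TCGA 1.01% and 0.661%. GTAC stood beside 2.02% and 3.46%, and ACGT beside 0.789% and 1.24%.

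The GATC words also had preferred places. With the motif read as AGATAA or its variants, GATC followed after 1 base in 17 exonic regions and directly in 9, among them PCDH15, CDH13, PTPN3 and HS6ST3 after 1 base and SMAD2, TBX2, PTPA, CX3CL1 and RGPD5 directly. Among all exonic motifs each of those places held GATC in 0.223% and 0.263%. Ahead of the motif, GATC was most frequent with 4 bases between, in 8 regions, including ARHGEF33, FMC1-LUC7L2 and PPP1R9A. That place held it in 0.284% of all exonic motifs. ANXA8 and ANXA8L1, near copies of each other (98.5% identity), were also among the 8. Of 3169 intronic motifs nearest to a shared region, 194 were followed by GATC directly and 189 after 1 base. Ahead of intronic motifs GATC was most frequent with 7 bases between (121 motifs), then with 8 (102 motifs) and with 4 (95 motifs).

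Motifs of other factors were compared between exonic and intronic regions over a panel of 13 on both strands of 200 bp. Besides GATA, 4 passed. The AP-2 motif GCCNNNGGC was in 9.43% of exonic and 3.97% of intronic regions (odds ratio 2.52, two-sided Fisher exact test, adjusted p 0.00341) and in 4.21% of all shared regions. The GC box GGGCGG was in 10.2% and 4.98% (odds ratio 2.18, adjusted p 0.00521) and in 5.28% of all. The SMAD1/5 word GGCGCC was in 4.51% and 1.38% (odds ratio 3.38, adjusted p 0.00521) and in 1.96% of all. The TEAD motif GGAATG was rarer in exonic regions, 12.7% against 19.4% (odds ratio 0.606, adjusted p 0.0289), with 18.9% of all, and it did not pass when replicates were matched within 250 bp (adjusted p 0.0673). Within 1 kb of a transcript start the GC box was in 13.5% of exonic and 14.4% of intronic regions, the opposite order, and away from starts in 7.86% and 3.83%. The AP-2 motif was in 10.6% and 6.83% near starts and in 8.57% and 3.62% away from them. Of the 11 exonic regions with GGCGCC, 6 were in 5′ UTRs (16.2% of these) and 1 was in coding sequence, and 8 lay within 1 kb of a transcript start. The median GC content was 51.5% in 5′ UTR regions, 47% in coding, 45.8% in other exons, 42.5% in 3′ UTR and 43.5% in introns, and its part in the differences of motifs other than GATA was not tested. Pooled over quintiles of GC content, the GATA difference did not pass (odds ratio 0.732, p 0.0567). In 100 bp only GATA and GGCGCC passed (adjusted p 0.0438 each).

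The remaining 8 panel motifs did not pass (adjusted p from 0.236 to 1). Among them AGATAA, one of the 4 GATA words, was in 48.0% of exonic and 52.9% of intronic regions, and in 51.6% of all. The reversed words AATAGA or GATAGA or AATAGT or GATAGT, a composition control, were in 29.5% and 32.3%, and in 32.6% of all. The shares for the SOX words ACAAAGG and ACAATGG were 9.43% and 12.9% (13.3% of all), for AP-1 words TGACTCA and TGAGTCA 6.56% and 5.35% (5.63%), and for the octamer ATGCAAAT 3.28% and 4.53% (5.08%). The SMAD word GTCTG was in 30.3% and 35.5% (36.1%), the E-box CACCTG in 14.3% and 13.1% (13.5%), and the CTCF motif in 0.410% and 0.715% (0.700%). These matches describe letters only.

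The replicates were then compared at exonic positions. Of 565 exonic positions in replicate 1, 247 (43.7%; 95% CI 39.7 to 47.8) had a partner in replicate 2, against 49.7% of the other positions and 49.6% of all. The odds ratio was 0.785 (two-sided Fisher exact test, adjusted p 0.0190). Of 348 in replicate 2, 236 (67.8%; 95% CI 62.7 to 72.5) had one in replicate 1, against 71.7% of the others and 71.5% of all (odds ratio 0.834, adjusted p 0.175). The lowest shares were in coding sequence for replicate 1 (37.2%) and in 5′ UTRs for replicate 2 (53.2%), and other exons had 51.1% and 78.8%. With partners sought within 50 bp the replicate 1 difference did not pass (odds ratio 0.866, exact p 0.107).

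**Figure D5:**
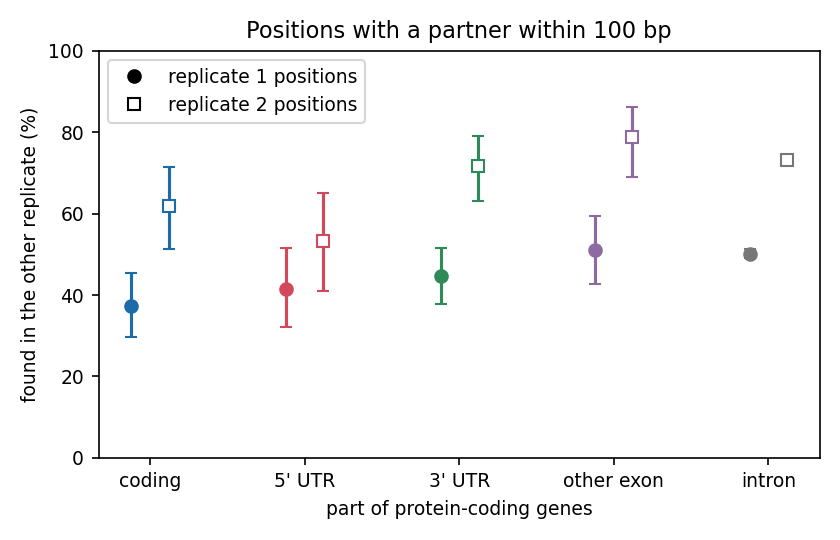
Percent of positions of each replicate with a position of the other within 100 bp, by part of protein-coding genes, with 95% Wilson intervals. Replicate 2, the shorter list, lies above replicate 1 in every part, and coding sequence has the lowest replicate 1 value (37.2% against 50.2% in introns).

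The distance between replicate positions was used to choose the regions and is given as a description. Its median was 23.5 bp in exonic and 24 bp in intronic regions. Positions were within 20 bp of each other in 113 exonic regions (46.3%) and in 44.2% of intronic and 45.0% of all regions. Both positions lay in an exon in 227 of 244.

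The exons holding the regions differed by part. Coding regions were mostly in internal exons, 38 of 54, with a median exon length of 166 bp, and a centre lay a median of 53.5 bp from the exon edge. In 3′ UTRs, 77 of 85 were in the last exon of a transcript and the remaining 8 in genes of a single exon, with a median exon length of 3838 bp. The longest was the last exon of SMAD2, with 32994 bp. Other exons had a median length of 1240.5 bp and 5′ UTR exons of 321 bp.

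Grouped by function, 1.21% of all 20007 protein-coding genes had an exonic region. Of 77 genes of the BMP and TGF-beta pathway, 4 had one (5.19%; median exonic length 4.95 kb, against 3.93 kb for all genes). They were SMAD2, an effector of activin and TGF-beta signals; SMAD7; FST, which binds and neutralises activin; and INHBA, the activin A subunit. SMAD2 had positions 47816125 and 47816105, FST 53486712 and 53486675, and INHBA 41689145 and 41689091, all in the 3′ UTR of the last exon. The nearest motif was AGATAA in these 3 genes and AGATAG in SMAD7.

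Of 266 listed developmental transcription factor genes, 11 had an exonic region (4.14%; median exonic length 2.61 kb). In the 3′ UTR were FOXC1, a forkhead factor of mesoderm, at 1613781 and 1613772, and ZIC1, a neural zinc finger factor, at 147416227 and 147416252. HOXA3, POU3F4, TBX1 and TFAP2B also had theirs in the 3′ UTR. TBX2, TBX3, FOXP1 and TFAP2A had theirs in other exons, and PAX6 in a 5′ UTR. TBX2 and TBX3 are T-box factors of limb and heart development, and in both the transcript was a retained-intron one. ZIC1 held 5 GATA motifs in its 200 bp, as many as DNAAF10, and HS6ST3 and ZNF648 held 4 each.

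Of 211 extracellular matrix and adhesion genes, 7 had an exonic region (3.32%; median exonic length 6.48 kb). The coding ones were CDH13 and the protocadherins PCDH10 and PCDH15, with the heparan sulfate proteoglycan GPC2. COL14A1 had a 5′ UTR region, and COL2A1 and LAMA2 had theirs in other exons. The WNT pathway had 2 of 69, the ligand WNT10B and the corepressor TLE3. Chromatin regulators had 1 of 126, the histone H3 lysine demethylase KDM6A, in coding exon 10 at 45053872 and 45053837. C2H2 zinc finger genes had 7 of 556 (1.26%). None of 57 FGF and Notch pathway genes and none of 20 pluripotency genes had one. The lists were made with earlier results known and do not hold every gene of their kind. Exonic regions also lay in developmental factor genes outside the list. For these reasons, and because longer exons give more room for a region, the shares are descriptions.

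Most genes were met once. In 156 of 239 genes (65.3%) the exonic region was the only shared region inside the gene, 79 genes also had an intronic one and 6 one within 1 kb of their start. LARP7, PCDH10, HINT1, PRICKLE1 and ARIH1 had 2 exonic regions each. In ARIH1, a ubiquitin ligase gene, both were in the long 3′ UTR, at 72585931 and 72585927 and at 72597431 and 72597432. In PRICKLE1 one was in the 3′ UTR and one in the 5′ UTR. Another shared region lay within 10 kb of 23 exonic regions (9.43%), compared with 13.2% of all shared regions.

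Some regions had near copies elsewhere. The 200 bp matched a second place in the genome (at least 90% identity over 150 bp) in 20 exonic regions (8.20%; 95% CI 5.37 to 12.3) and in 469 intronic regions (12.4%). In NPIPB12 and RGPD5, members of multigene families, the copy was identical. ANXA8 and ANXA8L1 matched each other, as did NPIPB5 and NPIPB12, and reads of the members of such a pair are hard to tell apart. The ARMC9 region had 529 such places. Without the 20, 224 exonic regions remained, and the odds ratio of the GATA share against introns was 0.665 (exact p 0.0169).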

How the data were processed

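The data were GATA3 ChIP-seq peak positions of 2 replicates of H1 hESC treated with BMP4. Per the study's methods and the submitters' processing notes, the authors cut adapters from the reads with cutadapt, placed them on hg38 using Bowtie, dropped duplicates using Picard, left out multiply mapped reads and blacklisted regions, and called peaks with MACS2 at a q-value of 0.05 in each replicate against its own input; versions were not given in the sources used here. The deposited files held 1 position per peak, in bases, with a gene name chosen by the authors and no score or width. The number of positions differs from the number of peaks that the study's methods state for each replicate, for a reason not given in the sources used here. How a peak was reduced to 1 position and whether bases count from 0 or 1 were not stated, so an offset of 1 bp is possible. Names given by the authors were used only to count matches (88 of 244 regions named the host gene). Input files were not used here, and positions on scaffolds were left out.

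Chromosome positions (1 to 22, X, Y) were placed in the GENCODE release 44 annotation. A centre was given to coding sequence, then 5′ UTR, 3′ UTR and other exon, in that order, over all transcripts. Other exons were those of retained-intron (37), undefined coding sequence (22) and nonsense-mediated decay (9) transcripts. Analyses used scipy 1.17.1 for the tests, pysam 0.24.0 for the genome, numpy 2.4.6 and pandas 2.3.3 for tables (Python 3.11.15), and blastn 2.17.0 for second places. The statistics were tested on simulated data. Densities were compared with exact binomial tests and shares with Fisher exact tests, two-sided, with Benjamini-Hochberg adjustment over the 7 planned tests, the 13 panel motifs or the 4 parts, at a threshold of 0.05. Shares have 95% Wilson and densities 95% exact Poisson intervals, which cover counting error over positions only. The study calls the replicates biological; the labels name no separate cultures.

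The members and lists were chosen with earlier results of these data known. Genes named were those of the lists with an exonic region, those with 2 or more regions, 5′ UTR members, the 8 coding and 8 3′ UTR members with a motif and the closest replicate positions, and the 5 with the most GATA motifs. NPIPB12, ANXA8, ANXA8L1, NPIPB5 and ARMC9 were named after their values were seen. Alternatives were the sharing distance (50 and 250 bp), canonical exons, other distances from starts, a 100 bp motif window, GC quintiles and each replicate alone.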

Additional observations from a re-analysis of the deposited data

How the results depend on the processing

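Of 79 alternative values, 59 kept their direction and their side of the threshold, or for counts stayed within 1.5 times. The lower GATA share of exonic against intronic regions (odds ratio 0.662) did not pass with canonical exons only (0.680, p 0.0916), more than 1 kb from any transcript start of a protein-coding gene (0.798, p 0.301), more than 5 kb from gene starts (0.695, p 0.0548), pooled over GC quintiles (0.732, p 0.0567) or, in an alternative chosen after seeing the data, without regions near any transcript start (0.830, p 0.403). The replicate 1 share did not pass within 50 bp (0.866, p 0.107). The density of coding sequence against 3′ UTR passed more than 1 kb from any transcript start of a protein-coding gene (0.659, p 0.0443), and per GATA motif, also chosen after seeing the data, it turned to 1.01 (p 1), with fewer motifs present in coding sequence. Split at 1 kb from any annotated transcript start, the coding value per motif was below the 3′ UTR value on both sides, which was not tested. Canonical exons left 130 exonic and 10 5′ UTR regions, with an odds ratio of transcript starts of 2.96. More than 1 kb from any transcript start of a protein-coding gene there were 150 exonic, 34 coding and 4 5′ UTR regions. In 100 bp the panel had 2 motifs past the threshold in place of 5, and with replicates matched within 250 bp it had 4.

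With 1 replicate alone, the counts ranged from 348 to 565 exonic, 84 to 145 coding, 117 to 193 3′ UTR and 62 to 94 5′ UTR positions. The density ratio ranged from 0.856 to 0.896, the GATA odds ratio against introns from 0.592 to 0.650, that of coding against 3′ UTR from 0.682 to 0.742, and that of transcript starts from 5.97 to 6.08.

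The 3 further alternatives chosen after seeing the data kept the result: without second places in the genome (224 regions; GATA odds ratio 0.665, p 0.0169) and density away from all transcript starts (0.680, p 0.0721). No paired analysis was possible because no input file was analysed and both ChIP samples belong to 1 group. Peak height and the depth of each library are not in these files, so regions could not be ranked or weighted, and an exon call rests on 1 position that may lie several bases from the bound site.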
